A study of Mus musculus with 2 samples.

Results

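The 7 genes described here are the aryl hydrocarbon receptor gene Ahr, its partner gene Arnt, the feedback genes Ahrr and Tiparp, and the target genes Cyp1b1, Nqo1 and Aldh3a1. They were picked by symbol from the 33670 gene symbols that both count matrices share, with earlier results of these data known. Ahr and Aldh3a1 had been chosen in part for their difference between the libraries, so every value below is a description.

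Stromal cells of the mouse colon were sorted as living cells carrying Podoplanin and lacking CD45, CD31 and EpCAM, and were sequenced with a droplet kit that reads the 5' end of transcripts. One library came from Il10ra ff; Pdgfra-cre mice, in which a Cre recombinase under the Pdgfra promoter meets floxed Il10ra alleles, and is called the Cre library. The other came from Il10ra ff mice, with the same floxed alleles and no Cre, and is called the control library. All mice were 6 months old, and the design counts 2 mice per genotype for 1 library each. Pdgfra, which drives the Cre, was itself expressed in every fibroblast class described below.

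The receptor is a transcription factor of the bHLH-PAS family that waits in the cytoplasm bound to chaperones until a small aromatic ligand binds it. It then enters the nucleus, pairs with ARNT and binds response elements with the core GCGTG. AHRR competes for ARNT and represses the receptor, while TIPARP is an ADP-ribosyltransferase that labels the receptor for loss. CYP1B1 is a cytochrome P450, NQO1 a quinone reductase that is also induced by the stress factor NRF2, and ALDH3A1 an aldehyde dehydrogenase. In the gut, ligands arise from diet and from microbial breakdown of tryptophan, and the receptor is best known there for its part in the barrier and in lymphoid cells.

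Promoter sequence was read from RefSeq for the GRCm38.p6 build, from 250 bases before to 50 bases after the start of the gene, and 5 of the 7 genes had an entry. The counts were made on GRCm39, so these windows serve only to show the sequence. The windows of 3 genes are printed to show how differently the response element core occurs in genes that respond to the receptor in textbooks. Capitals mark GCGTG, or CACGC where the core lies on the other strand. The Ahrr window is chr13:74292282-74292581, the Cyp1b1 window chr17:79715012-79715311 and the Nqo1 window chr8:107403156-107403455, all on the minus strand and given here in the direction of transcription.
Ahrr: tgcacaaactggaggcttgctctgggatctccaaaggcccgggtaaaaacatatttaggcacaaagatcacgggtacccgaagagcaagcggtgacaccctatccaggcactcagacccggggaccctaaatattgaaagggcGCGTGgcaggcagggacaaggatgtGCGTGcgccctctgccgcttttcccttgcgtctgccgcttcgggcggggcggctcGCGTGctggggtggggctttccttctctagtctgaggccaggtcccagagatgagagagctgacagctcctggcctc
Cyp1b1: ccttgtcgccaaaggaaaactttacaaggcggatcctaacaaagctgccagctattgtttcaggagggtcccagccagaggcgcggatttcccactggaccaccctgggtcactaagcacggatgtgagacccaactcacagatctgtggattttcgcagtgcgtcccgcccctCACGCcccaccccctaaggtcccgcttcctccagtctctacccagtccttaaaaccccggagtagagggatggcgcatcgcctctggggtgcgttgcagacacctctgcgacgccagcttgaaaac
Nqo1: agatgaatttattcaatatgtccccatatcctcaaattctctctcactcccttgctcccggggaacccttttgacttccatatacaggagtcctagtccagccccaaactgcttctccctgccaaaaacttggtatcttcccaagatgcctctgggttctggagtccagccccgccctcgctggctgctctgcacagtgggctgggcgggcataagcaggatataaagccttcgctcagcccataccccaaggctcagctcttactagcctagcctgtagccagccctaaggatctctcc
The Ahrr window held the core 3 times, the Cyp1b1 window once and the Nqo1 window 0 times. The windows of Arnt and Tiparp held it once each. The core was present in 32.4% of 32851 promoter windows of the same length, so its presence in 4 of 5 windows marks no gene as a target. The longer form TNGCGTG, which contains the core, was present in the window of Ahrr alone among the 5 and in 5.07% of all windows. A motif match is no binding site, and these windows leave out enhancers.

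The Cre library held 8627 barcodes and 66845139 unique molecular identifiers (UMIs, counts of single transcript molecules), and the control library 11380 barcodes and 76570611 UMIs. Their medians were 7332 and 6505 UMIs per barcode. After filtering, 8302 Cre and 10657 control cells were kept, and 115 barcode sequences occurred in both libraries. Cells were gated by marker genes into fibroblast classes and other cell types, so each name below stands for cells that resemble that type. The gate gave 493 Cre and 1276 control subepithelial fibroblasts (Sox6, Bmp3), 1810 and 2296 lamina propria fibroblasts (Adamdec1, Edil3), 3347 and 2878 adventitial or trophocyte fibroblasts (Pi16, Grem1), and 1863 and 2924 fibroblasts between classes. It also gave 181 Cre and 707 control smooth muscle cells (Myh11, Des), and between 42 and 104 interstitial cells of Cajal, glia, mesothelial and lymphatic endothelial cells per library. Near a gate boundary lay 17.2% of Cre and 18.6% of control fibroblasts. Pdgfra was at 1283 CPM in Cre and 1089 CPM in control subepithelial fibroblasts and between 243 and 354 CPM in the other fibroblast classes. The targeted gene, Il10ra, had 5 UMIs in Cre and 1 UMI in control fibroblasts, so these counts check nothing about the deletion.

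UMIs were summed over the cells of a class in a library and given as CPM, that is, divided by all UMIs of that sum and scaled to 1000000. Intervals are exact 95% intervals of counting and hold no variation between mice. With 1 library per genotype there is no replicate check and no test of the genotype.

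Ahr (ENSMUSG00000019256) was lower in the Cre library in every fibroblast class and in smooth muscle. Over all fibroblasts it had 7.12 CPM (437 UMIs) in the Cre library and 36.7 CPM (2408 UMIs) in the control library, 5.16-fold lower with an interval of 4.66 to 5.73. This is a log2 ratio of -2.22 with 1 CPM added, where the median over the 9034 measured genes was -0.04. The pooled value also holds the shares of the classes, which differed between the libraries. Adventitial fibroblasts, with the least Ahr, were 3347 of 7513 Cre and 2878 of 9374 control fibroblasts. With each fibroblast class weighted alike, the log2 ratio was -1.35.

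Within the fibroblasts, Ahr differed by class in the order of their textbook depth in the gut wall. It was highest in subepithelial fibroblasts, which lie under the epithelium, at 40.7 CPM in the Cre and 90.4 CPM in the control library (2.22-fold lower, 1.86 to 2.67). In lamina propria fibroblasts it was at 13.98 CPM in the Cre and 52.4 CPM in the control library (3.75-fold lower, 3.21 to 4.40). Adventitial fibroblasts, which lie deeper in the wall, had hardly any, with 0.431 CPM from 13 UMIs in the Cre and 2.38 CPM from 45 UMIs in the control library. The order of the 3 classes was the same in both libraries, and no neighbouring intervals overlapped within a library. Fibroblasts between classes lay between lamina propria and adventitial cells, at 6.20 and 31.7 CPM.

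The same order held for the share of cells with an Ahr UMI. Among subepithelial fibroblasts 22.1% of Cre and 34.9% of control cells had one, and after thinning each cell to 2000 UMIs 7.71% (5.46 to 10.5) and 14.3% (12.4 to 16.4) did. Thinning left out 26 and 54 shallower cells. Among adventitial fibroblasts, of which 84 and 183 were left out, the thinned shares were 0.0919% and 0.371%, against 0.388% and 1.18% unthinned. Median depths in the Cre and the control library were 6516 and 6540 UMIs in subepithelial and 8750 and 6296 UMIs in adventitial cells. The part of free RNA in these shares was not tested.

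Outside the fibroblasts Ahr was abundant in smooth muscle, at 36.5 CPM in the Cre and 99.3 CPM in the control library (2.72-fold lower, 2.01 to 3.75). The Cre smooth muscle cells carried more RNA of Adamdec1, a lamina propria marker, at 1031 CPM against 523 CPM in the control library, while their summed smooth muscle markers stood at 8740 and 9563 CPM. The part of this in the Ahr difference was not tested. In lymphatic endothelium Ahr was at 99.96 and 95.5 CPM, a ratio of 1.05 with an interval of 0.430 to 2.48. In glia it was at 46.4 and 39.9 CPM, a ratio of 1.16 with an interval of 0.570 to 2.52. Mesothelium had 18.0 CPM in the Cre and 14.8 CPM in the control library, from 10 and 9 UMIs. The glial interval lies above that of smooth muscle (ratio 0.368, 0.267 to 0.497), while those of lymphatic endothelium and mesothelium (1.22, 0.446 to 3.40) overlap it. The difference between these classes was not tested. Lamina propria marker RNA in lymphatic endothelium summed to 63.6 CPM in the Cre and 2162 CPM in the control library. Leukocyte marker RNA summed to 306 CPM in Cre and 43.2 CPM in control glia, and to 442 and 42.6 CPM in mesothelium. The part of this RNA in the Ahr values was not tested.

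Interstitial cells of Cajal had 0 Ahr UMIs in 402399 in the Cre library, which allows up to 7.46 CPM, and 28.1 CPM in the control library. The control value rests on 10 UMIs in 3 cells, of which 1 cell held 5. With the counting error of both libraries, the interval of the Cre over control ratio ran between 0 and 0.394. The Cre cells of this gate also carried leukocyte marker RNA, 1938 CPM summed over 7 markers against 53.5 CPM in the control library, with S100a9 at 890 CPM in the Cre and 0 UMIs in the control library. Its part in the Ahr value was not tested.

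**Figure D1:**
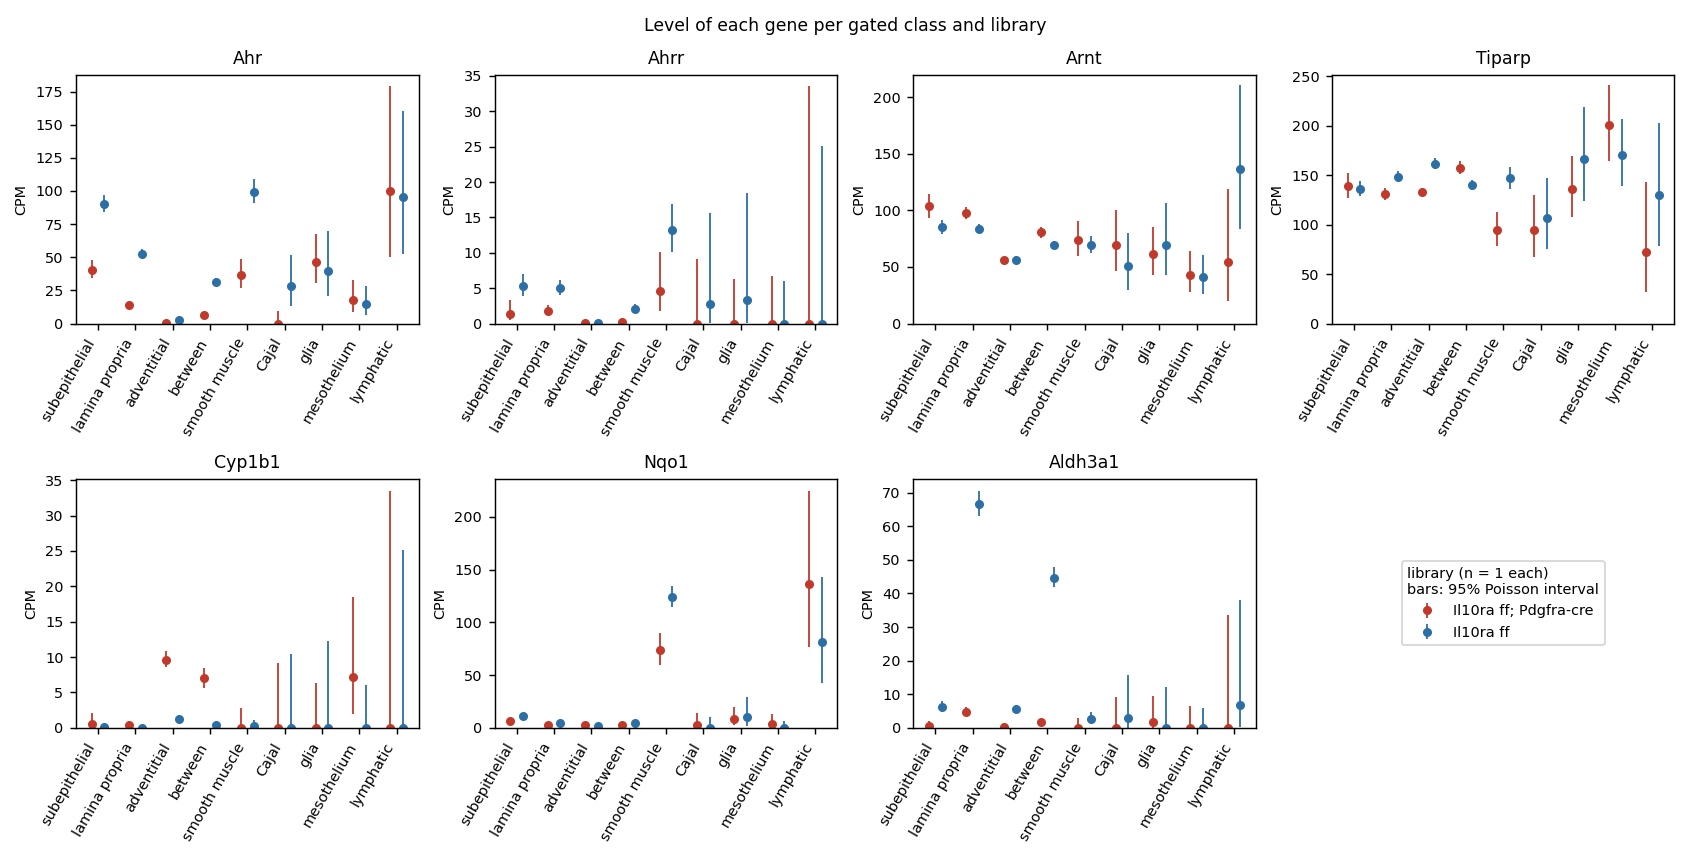
CPM (linear axis) of each of the 7 genes in 9 gated classes, with the Il10ra ff; Pdgfra-cre library in red left of the Il10ra ff library in blue; points are sums over cells of 1 library and bars exact 95% Poisson intervals. Ahr stands at 90.4 CPM in control subepithelial fibroblasts and 99.3 CPM in control smooth muscle, against 40.7 and 36.5 CPM in the Cre library, while Cyp1b1 is seen in Cre adventitial and in-between fibroblasts.

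Cells were clustered without the 7 genes and without the genes of the lists named below, which gave 21 clusters. Cluster 2 (Cxcl13, Sfrp2, Edil3) held 66.2% of Cre lamina propria fibroblasts, while clusters 6 (Cd36, Hcar2, Tbxas1) and 1 (Sfrp2, Frmpd4, Cck) held 39.6% and 31.5% of those of the control library. Each of these 3 clusters was mostly of 1 library and may be that library rather than a cell type. Adventitial fibroblasts were spread unevenly too: cluster 4 held 33.1% of those of the Cre and 1.32% of those of the control library, cluster 7 20.5% and 5.14%, cluster 3 9.59% and 31.5%, and cluster 10 3.38% and 18.1%. Each adventitial value in this account is therefore a sum over different clusters in the Cre and the control library.

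Ahr was high in cluster 6 of both libraries and low in clusters 1, 2 and 8. In cluster 6 it was at 72.4 CPM in 35 Cre and 80.5 CPM in 1565 control cells (ratio 0.900, 0.591 to 1.32). In cluster 1 it was at 18.7 CPM in 75 Cre and 18.5 CPM in 1989 control cells (ratio 1.01, 0.479 to 1.89). In cluster 8 (Adamdec1, Nav2), with 582 Cre and 443 control cells, it was at 11.99 and 14.8 CPM (ratio 0.812, 0.517 to 1.28). In cluster 2 it was at 12.6 CPM in 1779 Cre and 17.8 CPM in 52 control cells (ratio 0.708, 0.298 to 2.21). The intervals of all 4 clusters hold 1 and leave out the class ratio of 0.267, so a difference as large as that of the class was not seen inside any of them.

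Subepithelial fibroblasts and smooth muscle were different in this respect. Cluster 5 (Sox6, Procr, Wif1) held 87.2% of Cre and 86.5% of control subepithelial fibroblasts, and Ahr in it was at 47.4 CPM in the Cre and 96.0 CPM in the control library (ratio 0.494, 0.414 to 0.586). Cluster 9 (Myh11, Actg2) held 97.8% and 97.0% of the smooth muscle cells, and Ahr in it was at 38.7 and 99.5 CPM (ratio 0.389, 0.283 to 0.525). In both, the lower Ahr was thus seen between libraries inside the shared cluster.

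**Figure D2:**
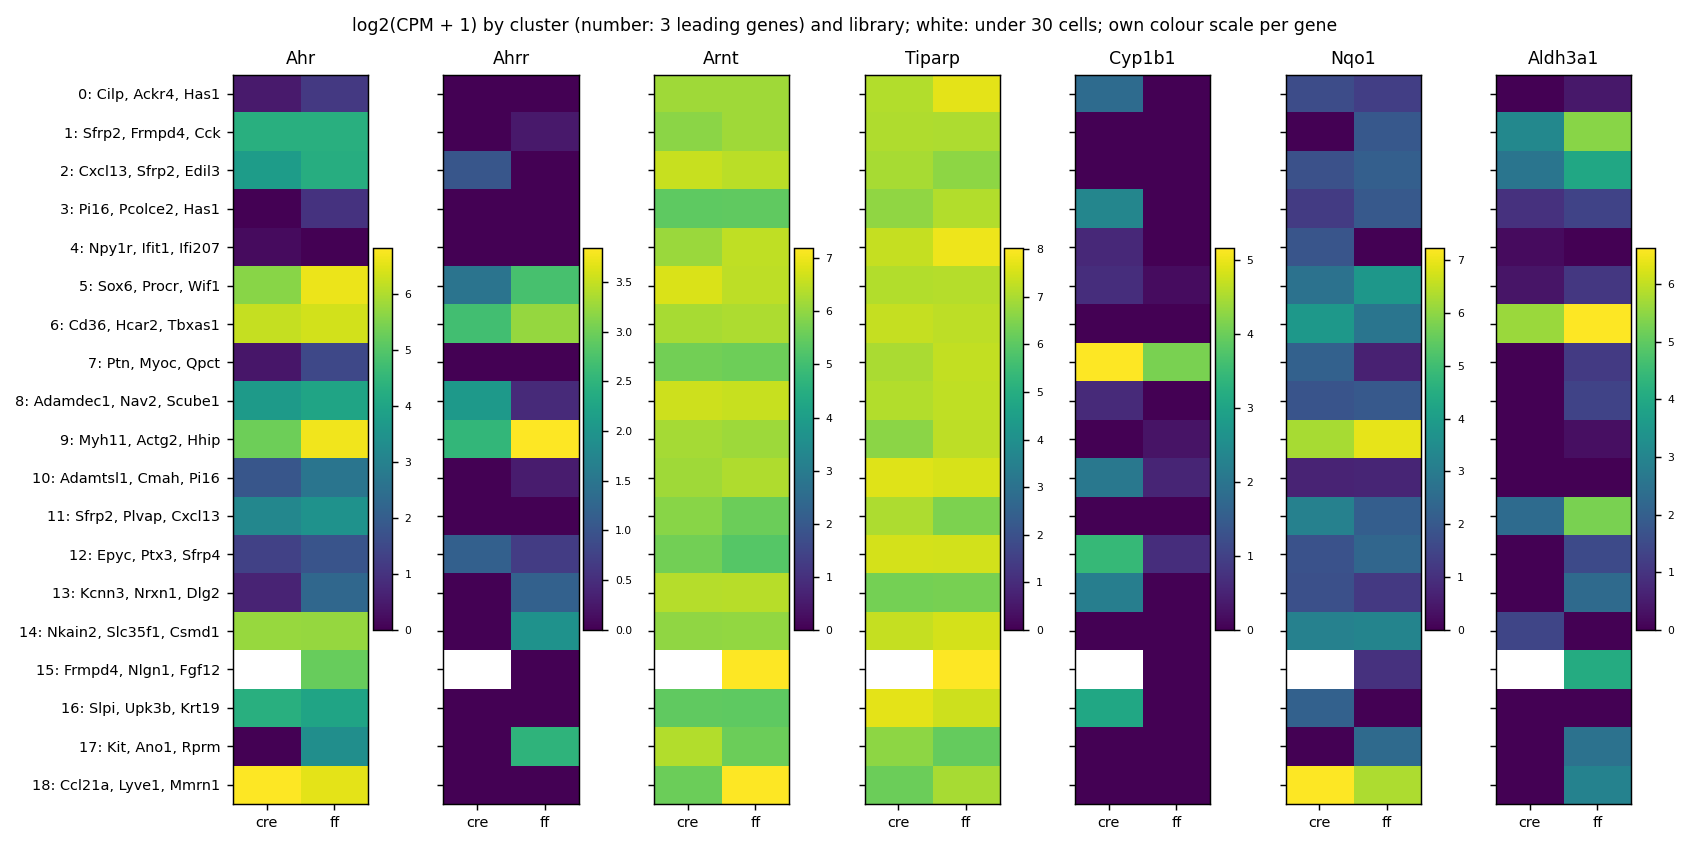
Colour gives log2(CPM + 1) of each gene, on a scale of its own, in clusters (rows, with number and 3 leading genes) by library (Il10ra ff; Pdgfra-cre left, Il10ra ff right); white marks under 30 cells. Ahr is alike in both columns of clusters 1, 6 and 8, while in clusters 5 and 9 the left column is darker; Aldh3a1 peaks in cluster 6 and Cyp1b1 in cluster 7.

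The classes were also split by a UMI of a single gene, with the 3 split genes chosen after values were known. Among lamina propria fibroblasts with a Cd36 UMI, a fatty acid transporter gene that leads cluster 6, Ahr was at 16.3 CPM in 25 Cre cells (4 UMIs) and 108 CPM in 410 control cells. Without a Cd36 UMI it was at 13.9 CPM in 1785 Cre and 34.1 CPM in 1886 control cells. Among subepithelial fibroblasts with a UMI of Nrg1, a growth factor gene, Ahr was at 44.2 CPM in 110 Cre and 124 CPM in 494 control cells, and without one at 39.6 and 61.3 CPM. Ahr was lower in the Cre library on both sides of each split, and in the control library it was higher in the cells with a Cd36 or Nrg1 UMI. Cells with such a UMI were also deeper, with medians of 9819 UMIs in Cre and 10637 in control cells with Cd36 and 7076 and 6910 without, and the part of depth was not tested.

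Arnt (ENSMUSG00000015522) encodes the partner that the receptor needs on DNA, and it stayed close between the libraries. Over all fibroblasts it was at 73.9 CPM in the Cre and 71.6 CPM in the control library, a ratio of 1.03 with an interval of 0.990 to 1.08. It was at 104 and 85.4 CPM in subepithelial, 98.0 and 84.0 CPM in lamina propria and 56.2 and 56.1 CPM in adventitial fibroblasts. Its ratios of 1.21 and 1.17 in the first 2 classes had intervals above 1, though the step was a small one beside that of Ahr. In smooth muscle it was at 73.8 and 69.5 CPM, a ratio of 1.06 (0.837 to 1.34). In the smaller classes its 4 ratios ran between 0.400 in lymphatic endothelium and 1.37 in interstitial cells of Cajal, each with an interval that holds 1.

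Ahrr (ENSMUSG00000021575), the repressor, was scarce, and its sums over subepithelial fibroblasts, lamina propria fibroblasts and smooth muscle were lower in the Cre library. In subepithelial fibroblasts it was at 1.40 CPM (5 UMIs) in the Cre and 5.24 CPM (46 UMIs) in the control library, 3.73-fold lower with an interval of 1.49 to 12.02. In lamina propria fibroblasts it was at 1.81 and 4.98 CPM (2.75-fold lower, 1.75 to 4.48), and 9 of the 25 Cre UMIs came from 1 cell. Of the 89 control UMIs there, 74 were in cells with a Cd36 UMI, and the cells without one had 1.62 CPM in the Cre and 1.12 CPM in the control library (ratio 1.45, 0.719 to 3.01). In cluster 8 Ahrr was higher in the Cre library, with 12 UMIs against 1 in the control library (ratio 8.45, 1.25 to 361). The 25 Cre lamina propria UMIs lay in 12 cells, and the intervals do not allow for several UMIs from 1 cell. Whether the cell with 9 UMIs lay in cluster 8 was not determined. Cells with a Cd36 UMI had 12.2 CPM in 25 Cre cells (3 UMIs) and 16.7 CPM in 410 control cells (ratio 0.734, 0.148 to 2.23). The lower Ahrr of lamina propria fibroblasts was thus not seen in cells without a Cd36 UMI or in cluster 8, on few UMIs. In cells with a Cd36 UMI the interval holds 1. Smooth muscle had the highest level, at 4.66 CPM in the Cre and 13.2 CPM in the control library (2.84-fold lower, 1.23 to 8.02). In adventitial fibroblasts, where Ahr was near the floor, Ahrr had 4 UMIs in the Cre and 1 UMI in the control library. Glia and lymphatic endothelium, where Ahr was well detected, together held 0 Ahrr UMIs in the Cre and 1 in the control library, at floors between 5.16 and 27.3 CPM.

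Tiparp (ENSMUSG00000034640), an early target of the receptor that also answers to other signals, was broadly expressed and did not follow Ahr from class to class. Over all fibroblasts it was at 138 CPM in the Cre and 148 CPM in the control library, a ratio of 0.936 with an interval of 0.909 to 0.964. It was at 139 and 136 CPM in subepithelial fibroblasts, where Ahr was highest, and at 133 and 161 CPM in adventitial fibroblasts, where Ahr was near the floor. Among classes whose interval leaves out 1, it differed most in smooth muscle, at 94.0 CPM in the Cre and 147 CPM in the control library (1.56-fold lower, 1.28 to 1.91). Immediate early and heat shock genes, which mark the stress of tissue dissociation, were lower there too: the median log2 ratio of 10 such genes was -0.64 in smooth muscle, against -0.05 over all fibroblasts. The same median was -0.58 in subepithelial fibroblasts, where the Tiparp ratio was 1.02. Their part in the Tiparp value was not tested.

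Aldh3a1 (ENSMUSG00000019102) was the target with the widest gap. Over all fibroblasts it was at 1.61 CPM (99 UMIs) in the Cre and 34.3 CPM (2247 UMIs) in the control library, 21.3-fold lower with an interval of 17.4 to 26.3. Unlike Ahr, it was concentrated in lamina propria fibroblasts, at 4.78 CPM in the Cre and 66.7 CPM in the control library (13.9-fold lower, 10.9 to 18.2), and in fibroblasts between classes, at 1.73 and 44.7 CPM. Adventitial fibroblasts had 0.232 CPM in the Cre and 5.76 CPM in the control library, but 94 of their 109 control UMIs came from 259 cells that fell in clusters mostly of other gates. In the clusters mostly of adventitial cells, 3279 Cre cells had 4 UMIs and 2619 control cells had 15 (0.135 and 0.875 CPM, ratio 0.155, 0.0374 to 0.486). In subepithelial fibroblasts it was at 0.562 CPM (2 UMIs) and 6.15 CPM (54 UMIs), a 10.9-fold lower level with an interval of 2.89 to 92.7. Of the 54 control UMIs, however, 46 came from 172 cells outside the cluster mostly of subepithelial cells. Inside that cluster 430 Cre cells had 1 UMI and 1104 control cells had 8. This is a ratio of 0.303 with an interval of 0.00682 to 2.26, which holds 1. In smooth muscle, where Ahr was abundant, Aldh3a1 had 0 UMIs in the Cre and 13 in the control library, 8 of them in 1 cell.

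Inside clusters Aldh3a1 did not behave as Ahr did. In cluster 6 it was at 48.3 CPM in the Cre and 97.0 CPM in the control library (ratio 0.498, 0.294 to 0.790), and in cluster 1 at 7.48 and 42.3 CPM (ratio 0.177, 0.0481 to 0.455). In clusters 6 and 1 the Ahr intervals held 1 and those of Aldh3a1 did not. In cluster 2 it was at 4.95 and 14.3 CPM (ratio 0.347, 0.130 to 1.31). In cluster 8, where Ahr was at 11.99 and 14.8 CPM, Aldh3a1 had 0 UMIs in the Cre and 4 in the control library. Lamina propria fibroblasts without a Cd36 UMI had 4.06 CPM in the Cre and 49.0 CPM in the control library, and a cell without such a UMI may still express Cd36.

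Cyp1b1 (ENSMUSG00000024087) was the 1 gene of the 7 at least 2-fold higher in Cre fibroblasts. Over all fibroblasts it was at 6.45 CPM (396 UMIs) in the Cre and 0.488 CPM (32 UMIs) in the control library, 13.2-fold higher with an interval of 9.21 to 19.6. Among fibroblast classes it was highest in the one with the least Ahr, adventitial fibroblasts, at 9.65 CPM in the Cre and 1.21 CPM in the control library (7.95-fold higher, 5.19 to 12.7). In the control library 8 of the 23 adventitial UMIs came from 1 cell. Fibroblasts between classes had 6.99 and 0.401 CPM (17.4-fold higher, 8.51 to 41.6). In lamina propria fibroblasts it had 6 UMIs in the Cre and 0 in the control library, and in subepithelial fibroblasts 2 and 1. Smooth muscle, glia, interstitial cells of Cajal and lymphatic endothelium held 0 Cyp1b1 UMIs in the Cre and 1 in the control library, in all. Mesothelium, where Ahr was at 18.0 and 14.8 CPM, had 4 UMIs (7.21 CPM) in the Cre and 0 in the control library.

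Most Cyp1b1 lay in cluster 7 (Ptn, Myoc, Qpct), at 34.7 CPM in 895 Cre cells and 16.5 CPM in 217 control cells (ratio 2.10, 1.43 to 3.22). Cluster 12 (Epyc, Ptx3, Sfrp4) had 40 UMIs in the Cre and 1 in the control library (ratio 16.7, 2.83 to 675). Inside cluster 7 the gap was thus a good deal smaller than over all fibroblasts, and Ahr had 3 UMIs in that cluster in each library. In clusters 0 and 3 Cyp1b1 had 18 and 9 UMIs in the Cre and 0 in the control library. The intervals of their ratios began at 3.58 and 5.44. In cluster 10 it had 5 and 2 UMIs (ratio 6.97, 1.14 to 73.2). Adventitial fibroblasts with a UMI of Myoc, the myocilin gene, had 20.4 CPM of Cyp1b1 in 627 Cre cells and 1.02 CPM in 398 control cells, and those without had 6.799 and 1.25 CPM. The gap in cells with a Myoc UMI was wider than in cluster 7 (ratio 20.1, 6.73 to 98.8), on 3 control UMIs.

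Nqo1 (ENSMUSG00000003849) was mainly a gene of smooth muscle and lymphatic endothelium. In smooth muscle it was at 73.8 CPM in the Cre and 124 CPM in the control library (1.68-fold lower, 1.35 to 2.11), and the 2 values inside cluster 9 were 75.9 and 124 CPM. In lymphatic endothelium it was at 136 and 81.8 CPM, from 15 and 12 UMIs (ratio 1.67, 0.728 to 3.90). Among fibroblasts it was lower in the Cre library in subepithelial cells, at 6.18 against 11.4 CPM (1.84-fold, 1.15 to 3.07), and in lamina propria cells, at 2.54 against 4.2004 CPM (1.66-fold, 1.09 to 2.55). In adventitial cells it was higher, at 2.62 CPM in the Cre and 1.69 CPM in the control library (1.55-fold, 1.02 to 2.42). The difference between these directions was not tested, as 1 library per genotype allows no test. Inside clusters 0, 3, 10 and 12, mostly of adventitial cells, the intervals of the Nqo1 ratio held 1. In cluster 7 the interval began at 1.05, on 33 Cre UMIs and 1 control UMI.

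**Figure D3:**
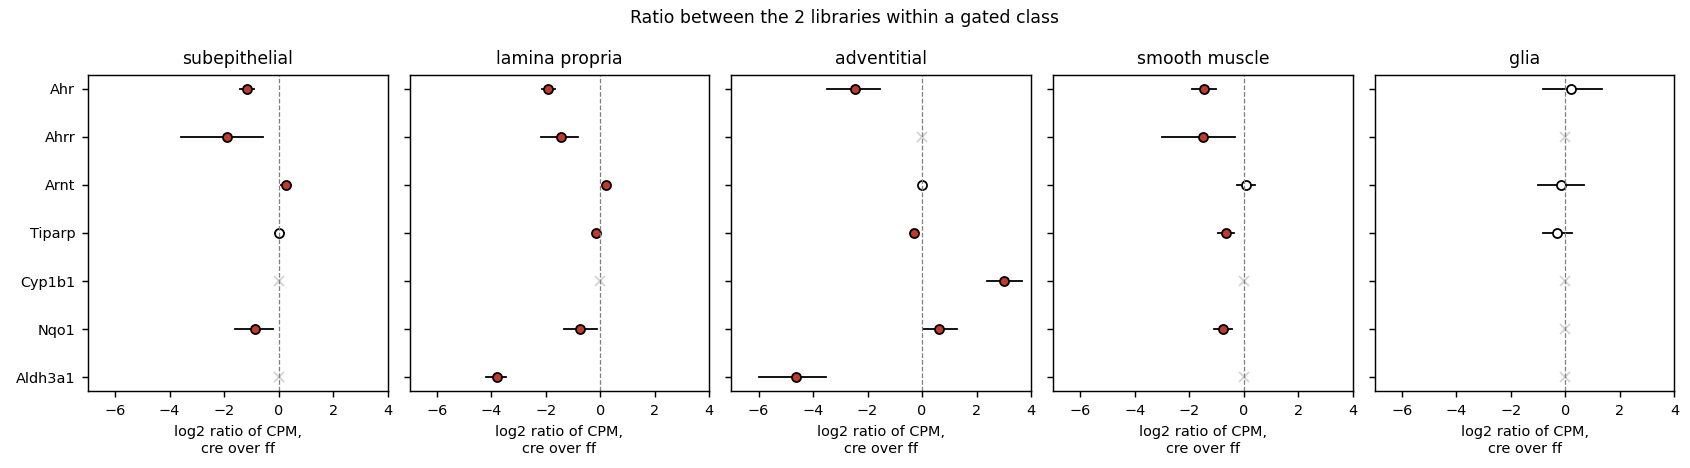
Log2 ratio of CPM between the libraries (Il10ra ff; Pdgfra-cre over Il10ra ff) for each gene in 5 gated classes, with exact 95% binomial intervals of counting error; filled points have an interval that leaves out 0, and grey crosses mark genes with under 4 UMIs in a library. Ahr lies left of 0 in 4 of the 5 classes with the glial interval across 0, Arnt lies near 0, Tiparp lies left of 0 in smooth muscle (ratio 0.641), and Cyp1b1 lies right of 0 in adventitial fibroblasts.

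Counted by a 2-fold limit with 1 CPM added, 4 of the 7 genes were measured in fibroblasts, that is, had a mean of at least 10 CPM. Of these, Ahr and Aldh3a1 were lower and 0 were higher, where 0.963% of 9034 measured genes were lower and 1.84% higher. This contrast took part in the choice of the genes, so nothing is read from the 2 calls. In lamina propria fibroblasts the same 2 of 4 measured genes were lower, with 1.21% of all measured genes lower and 2.04% higher. In subepithelial fibroblasts Ahr alone of 3 measured was lower, with 0.905% of all measured genes lower and 1.77% higher; this call is lost with each cell weighted alike (log2 ratio -0.85) and with 10 CPM added (-0.98). In smooth muscle Ahr alone of 4 measured was lower, with 1.39% lower and 2.61% higher. In adventitial fibroblasts 0 of the 2 measured passed, with 0.404% lower and 1.6% higher. Over all 7 genes, measured or not, the median log2 ratio in fibroblasts was -0.51, with 3 at least 2-fold lower and 1 at least 2-fold higher.

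Whether the targets followed Ahr was described over 14 sums of at least 50 cells, 7 per library, on the log2(CPM + 1) scale. The sums of a library share its preparation and depth, so the coefficients only describe these libraries. Ahrr had a Pearson coefficient of 0.74 with Ahr (Spearman 0.68) and Nqo1 one of 0.57 (Spearman 0.78), so which of them followed Ahr more closely depends on the measure. Aldh3a1 (0.33) and Arnt (0.34) had smaller coefficients, and that of Cyp1b1 was negative (-0.55). For Tiparp it was 0.24 over all sums, 0.19 within the Cre sums, -0.59 within the control sums and 0.07 over cluster sums, so its sign turned. Within the 7 Cre sums the coefficient was 0.56 for Ahrr, 0.60 for Nqo1, 0.33 for Aldh3a1, 0.44 for Arnt and -0.46 for Cyp1b1, and within the 7 control sums 0.89, 0.69, 0.13, 0.66 and -0.71 in the same order. Over 32 cluster sums the values were 0.65 for Ahrr, 0.57 for Nqo1, 0.39 for Aldh3a1 and -0.49 for Cyp1b1. Cre glia had 46.4 CPM of Ahr and 0 Ahrr UMIs, though that count allows up to 5.16 CPM by the 3-count floor. The sums of Cre interstitial cells of Cajal and control mesothelium, both with less Ahr, also had 0 Ahrr UMIs.

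**Figure D4:**
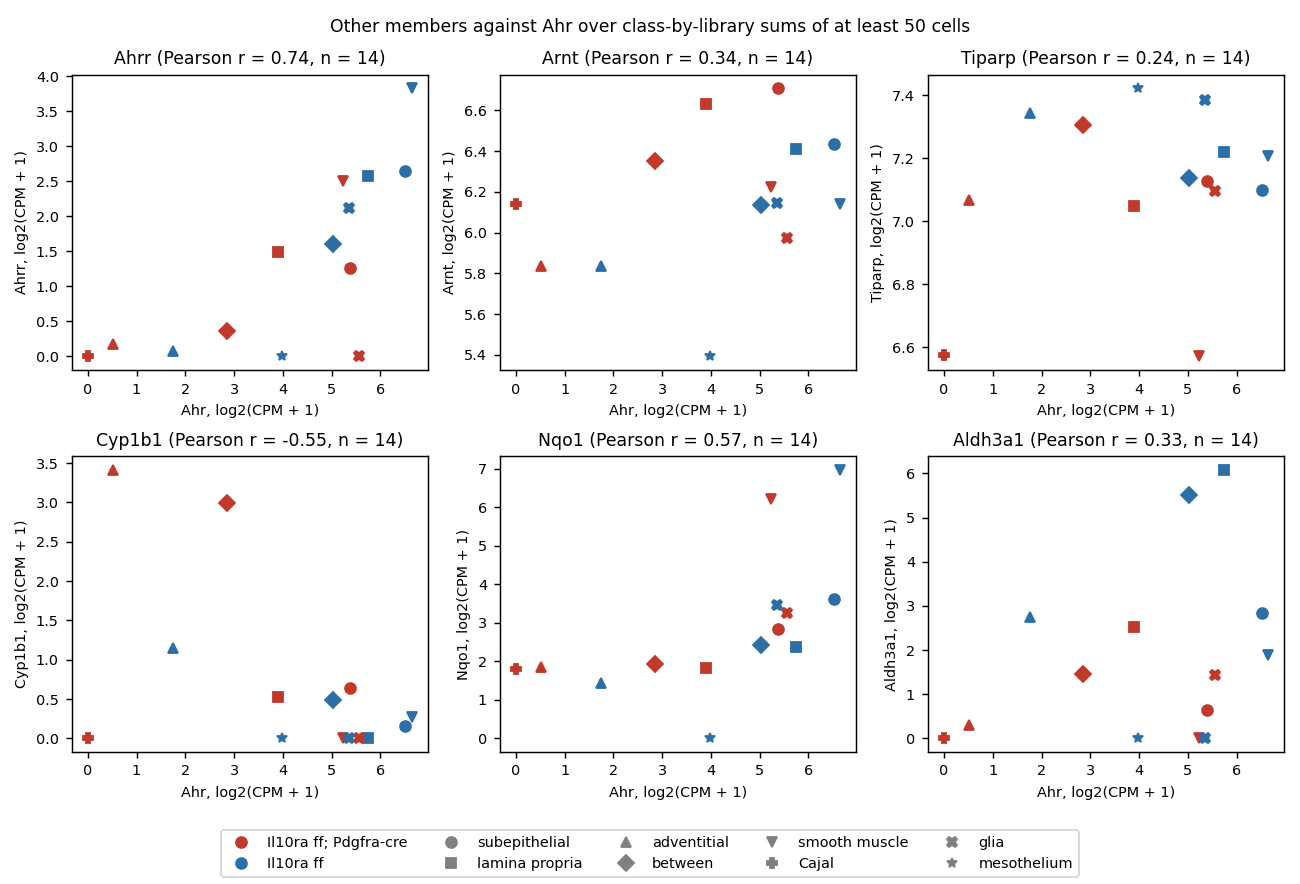
Each panel sets 1 gene against Ahr, both in log2(CPM + 1), over 14 sums of at least 50 cells; red is Il10ra ff; Pdgfra-cre, blue Il10ra ff, and the symbol gives the class. Ahrr is higher where Ahr is higher (r = 0.74), and Aldh3a1 is high in 2 control sums, lamina propria and in-between fibroblasts. Cyp1b1 is high in 2 Cre sums, adventitial and in-between fibroblasts, and is at 0 in the sum with the least Ahr, Cre interstitial cells of Cajal.

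At the level of single cells, those with an Ahr UMI were set beside those without in the control library. Control lamina propria fibroblasts with an Ahr UMI had 99.4 CPM of Aldh3a1, against 52.1 CPM in those without, and 11.1 against 2.27 CPM of Ahrr. In the Cre library Ahrr had 0 UMIs in 155 lamina propria cells with an Ahr UMI and 25 UMIs (2.02 CPM) in 1655 without. The interval of the 0 count, 0 to 2.60 CPM, holds 2.02, and 9 of the 25 UMIs came from 1 cell. Ahrr in Cre cells with and without an Ahr UMI was at 3.65 and 0.731 CPM in subepithelial fibroblasts. In Cre smooth muscle it was at 10.3 and 3.01 CPM, and each of these 4 values rests on 2 or 3 UMIs. Control subepithelial fibroblasts with an Ahr UMI had 20.8 CPM of Nqo1, against 4.68 CPM without, and 8.77 against 2.73 CPM of Ahrr. In control smooth muscle the Nqo1 levels were 132 and 118 CPM with overlapping intervals. Ahrr there was at 14.2 CPM (31 UMIs, 9.65 to 20.2) with and 12.4 CPM (32 UMIs, 8.48 to 17.5) without an Ahr UMI, so these intervals overlap too. In the Cre library Aldh3a1 was at 9.87 CPM (14 UMIs) and 4.199 CPM (52 UMIs) in lamina propria cells with and without an Ahr UMI, both far under either control value. Tiparp in control smooth muscle was at 174 CPM (157 to 192) with and 124 CPM (111 to 138) without an Ahr UMI, and in Cre smooth muscle at 131 and 83.4 CPM with overlapping intervals. In lamina propria fibroblasts it was at 159 and 143 CPM in control and 122 and 132 CPM in Cre cells. In subepithelial fibroblasts it was at 130 and 140 CPM in control and 138 and 139 CPM in Cre cells. Cells with an Ahr UMI were deeper, with a median of 10164 against 6818 UMIs in control lamina propria cells, and the part of depth was not tested.

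Likeness to Ahr over the 14 sums was ranked for 9915 genes that reached 20 CPM in any of them, and the 10 most like it were Pxdn (Pearson 0.955), Adnp, Plk2, Bcl9l, Hnrnpd, Agps, Stox2, Tbx2, Col12a1 and Cbll1 (0.843). Nqo1 came 520th in this order, Arnt 2057th, Aldh3a1 2182nd and Tiparp 3149th, while Ahrr and Cyp1b1 never reached 20 CPM. Plk2, which encodes a polo-like kinase, was at 120 CPM in Cre and 406 CPM in control subepithelial fibroblasts and at 75.4 and 185 CPM in smooth muscle. Pxdn, which encodes the matrix peroxidase peroxidasin, was at 75.9 and 90.3 CPM in subepithelial and at 24.0 and 30.6 CPM in adventitial fibroblasts. The 5 genes most unlike Ahr were AW551984 (-0.895), Rab11fip5, Foxp2, Auts2 and Sidt2 (-0.861). Foxp2, a transcription factor gene, was at 34.3 CPM in Cre and 12.1 CPM in control subepithelial fibroblasts and at 170 and 156 CPM in adventitial ones.

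Other genes of the pathway were described from lists. Hsp90ab1, which encodes the chaperone that holds the receptor in the cytoplasm, was at 1774 CPM in Cre and 1874 CPM in control fibroblasts. Of 8 relatives or alternative partners of ARNT 5 were measured and 0 passed, with a median log2 ratio of -0.39 and Npas2, a clock factor gene, lowest at -0.55. Hif1a, the hypoxia factor that also pairs with ARNT, was at 58.2 and 54.9 CPM.

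Of 13 other textbook targets of the receptor 5 were measured in fibroblasts, and 0 passed in either direction, with a median log2 ratio of -0.01. Cyp1a1, the classical target, had 0 UMIs in Cre and 1 in control fibroblasts, at floors of 0.0489 and 0.0458 CPM. Ugt1a6a, a glucuronosyltransferase, was at 16.9 and 16.5 CPM, and Slc7a5, an amino acid transporter, was lowest at a log2 ratio of -0.52. None of the 8 enzymes that make ligands or break down tryptophan was measured, and Afmid, the most abundant, was at 4.89 and 4.81 CPM. The local enzymes Ido1 and Tdo2 had 3 and 14 UMIs in the Cre and 5 and 23 in the control library.

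The 2 families that share a gene with the set were described in the same way. Of 12 NRF2 targets 11 were measured in fibroblasts and 0 passed, with a median log2 ratio of -0.01. In subepithelial fibroblasts 2 of 10 were lower, where 0.905% of all measured genes were, namely Gstm1 at 244 against 496 CPM and Osgin1 at 12.6 against 30.2 CPM. In lamina propria fibroblasts Slc7a11, a cystine transporter, was higher at 42.0 against 17.4 CPM, where 2.04% of all measured genes were higher. In smooth muscle, where Nqo1 was lower, 0 of 9 passed and the median was -0.45. Of 11 other aldehyde dehydrogenases 9 were measured in fibroblasts and 0 passed, from Aldh1a1 at -0.76 to Aldh6a1 at 0.53, set against -3.76 for Aldh3a1.

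The lists that mark the state of the cells differed more. All 8 interferon response genes were at least 2-fold higher in Cre fibroblasts, with a median log2 ratio of 2.14, where 1.84% of all measured genes were higher. In smooth muscle 8 of 8 were higher, with a median of 2.98, where 2.61% of all measured genes were. In subepithelial fibroblasts 7 of 8 were higher, with a median of 1.46, where 1.77% of all measured genes were. Lamina propria fibroblasts had 8 of 8 higher (median 2.05, 2.04% of all measured genes). Adventitial fibroblasts had 7 of 7 measured higher (median 2.20, 1.6% of all measured genes). Of 10 dissociation genes 0 passed in fibroblasts, but the medians were -0.58 in subepithelial fibroblasts and -0.64 in smooth muscle. In smooth muscle Ier2 passed as lower, where 1.39% of all measured genes were. In subepithelial fibroblasts and smooth muscle both lists thus differed alongside the lower Ahr. The dissociation median was -0.31 in lamina propria and 0.07 in adventitial fibroblasts, where Ahr was 3.75-fold and 5.51-fold lower. The part of either list in the lower Ahr was not tested. Red blood cell RNA was seen in the Cre library, with Hbb-bs at 85.6 CPM in Cre and 0.443 CPM in control fibroblasts, and without cells carrying it or leukocyte, plasma cell or epithelial marker RNA the log2 ratio of Ahr was -2.26.

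**Figure D5:**
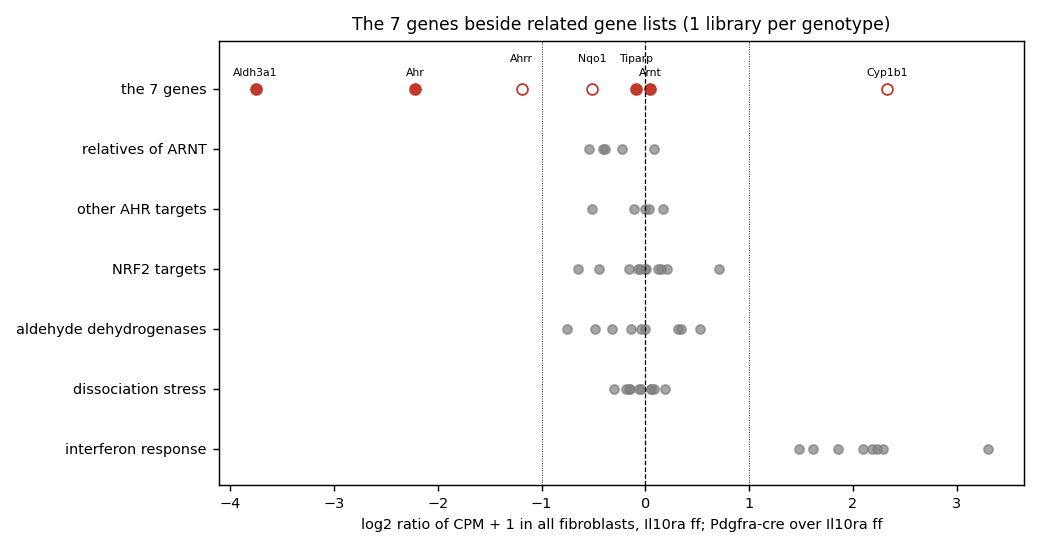
Log2 ratio of CPM + 1 over all fibroblasts (Il10ra ff; Pdgfra-cre over Il10ra ff) for the 7 genes, filled where their mean was at least 10 CPM and open where it was not, and for measured genes of 6 related lists; dotted lines mark 2-fold. Aldh3a1 (-3.76) and Ahr (-2.22) lie left of the measured genes of the lists, which stay within 2-fold except the 8 interferon response genes.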

How the data were processed

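The values in the deposited matrices are raw counts of UMIs, which the authors made with Cell Ranger 8.0.1 on GRCm39, per the submitters' processing notes. Both libraries list 33696 features, and 26 rows repeat a symbol, of which the first was used. Unused columns of per-sample values came to 0.

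A barcode needed 500 genes or more, and no more than 10% of its UMIs from mitochondrial genes. Scrublet (scanpy 1.11.5, library by library, expecting 8% doublets) called 111 Cre and 393 control doublets at score cutoffs of 0.404 and 0.326, which were removed; 214 and 330 barcodes failed the filter.

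Each class was scored by the mean of its z-scaled log marker levels, capped at 3. A type other than fibroblast needed at least 3 markers with a UMI and a score above 1. Fibroblasts needed 5 of 9 markers, and a class needed to lead by 0.3, a rule set after the data were seen. Cells were clustered with leidenalg 0.10.2 at resolution 1 on 2000 variable genes, 30 components and 15 neighbours, without integration. In a list, a gene was called at 2-fold on the log2 ratio of CPM + 1 if its mean was at least 10 CPM.

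Sums carry exact Poisson intervals, ratios exact binomial and shares Clopper-Pearson intervals (scipy 1.17.1). A count of 0 allows up to 3 counts. Steps were tested on simulated data. edgeR 4.0.16 served only for TMM factors. The genes, lists and splits were chosen with earlier results of these data known. Named were the 7 genes, up to 2 list members each that ranked top, bottom or first in abundance, and the 10 genes most and 5 least like Ahr among genes of at least 20 CPM, leaving out predicted, mitochondrial, ribosomal protein, antigen receptor and haemoglobin genes; Hif1a, Cyp1a1, Ido1, Tdo2 and the check and split genes were named outside this rule. A result for 1 gene is left out of the text and not reported here.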

Additional observations from a re-analysis of the deposited data

Results flagged for a closer look

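Nqo1 stood on opposite sides of equal levels in different classes. Its Cre over control ratio was 1.55 in adventitial fibroblasts, against 0.543 in subepithelial fibroblasts, 0.604 in lamina propria fibroblasts and 0.594 in smooth muscle. The difference between these ratios was not tested, since each genotype had 1 library. The adventitial value rests on 79 Cre and 32 control UMIs, and its counting interval begins at 1.02. In clusters mostly of adventitial cells the ratio was 1.45 (0.602 to 3.71) in cluster 0 and 0.459 (0.0867 to 1.57) in cluster 3. It was 0.930 (0.0177 to 11.6) in cluster 10 and 0.596 (0.205 to 1.84) in cluster 12, and all these intervals hold 1. Clusters 4 and 7, with more Cre than control cells, had 38 and 33 UMIs in the Cre and 0 and 1 in the control library. The intervals of their ratios began at 0.281 and 1.05.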

How the results depend on the processing

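Ahr was lower in Cre fibroblasts under all 11 alternatives tried, at log2 ratios between -2.35 and -1.35, against -2.22 as reported. It moved to -1.45 with 10 CPM added, to -1.78 with each cell weighted alike and to -1.35 with each fibroblast class weighted alike, which takes the shares of the classes out of the value. The sign of every other member also held, though Cyp1b1 ranged between 0.65 and 3.48 and Aldh3a1 between -4.33 and -1.93. Ahrr, at -1.19 as reported, came to -0.26 with 10 CPM added, -0.79 with cells weighted alike and -1.96 with 0.1 CPM added, and the first 2 are under 2-fold. Of all measured genes, 87 were at least 2-fold lower; this became 44 with 10 CPM added, 46 with classes weighted alike, 199 with no minimum and 25 with at least 50 CPM. The 166 genes at least 2-fold higher became 105 with 10 CPM added, 314 with no minimum and 66 with at least 50 CPM. The 2 members called lower became 0 with at least 50 CPM, a minimum that neither reaches. Gate margins of 0 and 0.6, chosen after seeing the data, kept the sign of Ahr in each class. No paired analysis was possible because each genotype had 1 library. Depth limits the smaller classes: in lymphatic endothelium the 3-count floor stood at 27.3 CPM in the Cre and 20.5 CPM in the control library.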
